A study of Mus musculus with 22 samples.

Results

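The mouse potassium channel genes, taken as every gene whose symbol begins with Kcn, were followed across Aire knockout (KO) and wild-type (WT) medullary epithelial cells (MECs) of the thymus. A probe entered when the platform annotation gave it a single gene symbol with that prefix, and where a gene had several probes, that of highest mean stood for it. This gave 92 Kcn genes of 19752 genes measured, from 95 probes. They comprise 35 voltage-gated pore subunits, 15 inward rectifiers (Kcnj), 14 tandem-pore leak channels (Kcnk), 8 calcium- or sodium-activated channels, 16 accessory subunits and 4 genes of the prefix that encode no channel subunit (Kcnrg, Kcnd3os, Kcnmb4os1 and Kcnmb4os2). Classes were taken by symbol and not by function.

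The MECs came from C57Bl/6 mice and were sorted by absence of CD45, low Ly51 and high MHC class II, and their amplified RNA was hybridised to Affymetrix gene arrays. The 22 arrays form 8 groups. Aire-/- (KO) mice given DMSO (3 arrays), Etopo (2), Topo (3) or both drugs, EtopoTopo (2), are set against Aire+/+ (WT) mice given the same treatments (3 arrays in each of the 4 groups). DMSO is the solvent used as vehicle, and Etopo and Topo are common short names of etoposide and topotecan, drugs that inhibit topoisomerases, although the labels do not spell them out. Mice were 4 weeks old for 7 arrays (every EtopoTopo array, WT DMSO 3 and WT Etopo 3) and 6 weeks old for the other 15, per the labels. The labels name no Cre or promoter for the KO. They do not say if an array holds 1 mouse or pooled mice, so the p-values measure only the spread of these arrays, part of which may be technical.

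Potassium channels let potassium ions leave or enter cells and so set the resting membrane potential. Voltage-gated, inward-rectifier, tandem-pore and calcium-activated channels differ in what opens them, and accessory subunits change the gating or trafficking of the pores they join. Most family members are known from brain, heart, kidney, gut, muscle or pancreatic islet. In the thymus, MECs transcribe many genes of such peripheral tissues, a part of them under the control of Aire, and display the products to developing T cells.

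The promoters of 5 members are shown, chosen from the genes that differed between the genotypes under every treatment. Of these 5, Kcnj16, Kcnmb1 and Kcnip1 were lower in KO, and Kcnj3 and Kcng3 higher in KO. With both drugs, the differences of Kcnmb1 and Kcnip1 did not hold under every setting tried. Kcnh1, Kcnh2, Kcnk9 and Kcnq1 were also lower in KO under every treatment and are not shown. Each runs 5′ to 3′ from 250 bases before to 50 bases after the RefSeq gene start on assembly GRCm38.p6, with every CG dinucleotide in capitals. They lie at chr11:110967783-110968082 (Kcnj16, plus strand), chr11:33962763-33963062 (Kcnmb1, plus strand), chr11:33993144-33993443 (Kcnip1, minus strand), chr2:55435720-55436019 (Kcnj3, plus strand) and chr17:83631846-83632145 (Kcng3, minus strand).
Kcnj16: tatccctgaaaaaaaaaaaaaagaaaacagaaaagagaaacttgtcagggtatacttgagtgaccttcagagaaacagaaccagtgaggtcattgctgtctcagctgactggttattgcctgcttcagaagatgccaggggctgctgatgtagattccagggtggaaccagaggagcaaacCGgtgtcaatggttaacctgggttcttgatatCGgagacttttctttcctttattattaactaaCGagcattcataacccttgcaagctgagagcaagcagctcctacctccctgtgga
Kcnmb1: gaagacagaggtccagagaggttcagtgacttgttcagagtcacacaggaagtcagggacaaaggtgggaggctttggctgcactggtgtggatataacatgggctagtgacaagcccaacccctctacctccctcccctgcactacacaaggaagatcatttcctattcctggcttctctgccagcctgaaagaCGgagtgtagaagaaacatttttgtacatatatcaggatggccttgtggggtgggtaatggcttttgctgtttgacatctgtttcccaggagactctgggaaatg
Kcnip1: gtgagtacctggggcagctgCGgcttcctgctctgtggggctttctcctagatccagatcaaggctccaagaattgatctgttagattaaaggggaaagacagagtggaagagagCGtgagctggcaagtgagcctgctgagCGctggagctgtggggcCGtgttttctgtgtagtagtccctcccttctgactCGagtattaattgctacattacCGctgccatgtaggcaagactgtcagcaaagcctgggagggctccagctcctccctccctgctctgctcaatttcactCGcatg
Kcnj3: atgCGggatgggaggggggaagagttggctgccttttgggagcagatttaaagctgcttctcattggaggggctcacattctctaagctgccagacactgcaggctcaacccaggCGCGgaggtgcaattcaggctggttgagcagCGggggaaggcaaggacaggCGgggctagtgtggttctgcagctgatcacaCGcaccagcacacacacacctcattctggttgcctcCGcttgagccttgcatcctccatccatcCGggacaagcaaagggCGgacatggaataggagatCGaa
Kcng3: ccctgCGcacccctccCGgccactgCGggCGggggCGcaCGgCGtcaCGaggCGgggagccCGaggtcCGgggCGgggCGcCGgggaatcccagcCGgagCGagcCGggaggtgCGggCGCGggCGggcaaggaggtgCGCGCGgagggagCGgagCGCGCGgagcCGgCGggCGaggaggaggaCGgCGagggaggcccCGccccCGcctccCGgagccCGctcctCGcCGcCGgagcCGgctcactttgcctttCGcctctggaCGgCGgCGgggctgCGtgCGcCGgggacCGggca

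The windows of Kcnj16, Kcnmb1 and Kcnip1 held 3, 1 and 7 CG dinucleotides, and those of Kcnj3 and Kcng3 held 10 and 49. Those of Kcnh1 and Kcnh2, lower in KO under every treatment but not shown, held 27 and 19. CG reads the same on both strands. The windows were also searched for TATAAA on either strand, which stood in 14.2% of all windows and 4.29% of those of members. These shares are a description only. Of 27025 promoter windows of that length in the RefSeq table, 94.2% held at least 1 CG, and the median was 7. As many CGs as in Kcnmb1, or fewer, stood in 14.6% of all windows, against 99.2% for Kcng3. Windows were found for 70 of the 92 members. Among these the median was 9 CGs for the 17 members that fell in KO under DMSO, 29 for the 4 that rose and also 9 for the 49 not called. As 22 members had no window, a comparison of CG content between member groups is void, and these medians are a description. Kcnk9 and Kcnq1 had no window and were named only.

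Replicate arrays correlated at 0.963 to 0.997, and median intensity ran from 236.15 to 263.57 per array. The MEC markers (9 of 9 measured) averaged 11.04 on the log2 scale in KO EtopoTopo 1, the lowest array, and 11.34 to 11.87 on the other 21. Thymocyte markers (11 of 13 measured) averaged 8.95 in KO DMSO 1 and 8.49 in WT DMSO 1, against 7.02 to 7.68 on the other 20 arrays. KO EtopoTopo 1 had the narrowest spread of values, with 3.89 log2 units between its 10th and 90th percentiles, against up to 5.01 on other arrays. The titles of WT EtopoTopo 1 and 2 name both drugs while their treatment label names Etopo only. The Aire probe read 11.43 to 12.96 in KO and 11.27 to 12.44 in WT arrays. Which part of Aire was deleted is not given in the sources used here, so this probe does not test the deletion. Xist was at 11.38 to 12.56 on all 22 arrays, also on the 3 labelled male, and 3 Y-linked genes stayed at or under 6.07.

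Under DMSO, 21 of the 92 potassium channel genes fell in KO MECs and 4 rose. That is 22.8% of the family lower and 4.35% higher, beside 12.0% of all genes lower and 7.40% higher in the same comparison. The falls were led by Kcnmb1, Kcnk9, Kcnip1, Kcnj16, Kcnk16 and Kcne1l, each at least 2-fold, and the rises by Kcnj3 and Kcng3, also at least 2-fold. Differences were taken as KO minus WT on the log2 scale, and SE is the standard error from a limma fit over all 22 arrays. A gene was called at a Benjamini-Hochberg adjusted p under 0.05 over all 19752 genes. All 92 members were tested with no filter on dim probes. Of these, 69 lay below 0 and 23 above. The median of the family was -0.16, against -0.01 for all genes, and after quantile normalization the medians were -0.03 for the family and 0.04 for all genes. Over all genes 2363 were lower and 1462 higher, and after quantile normalization 1971 lower and 1739 higher. The count was 25 again without the 2 DMSO arrays that were high in thymocyte markers.

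**Figure D1:**
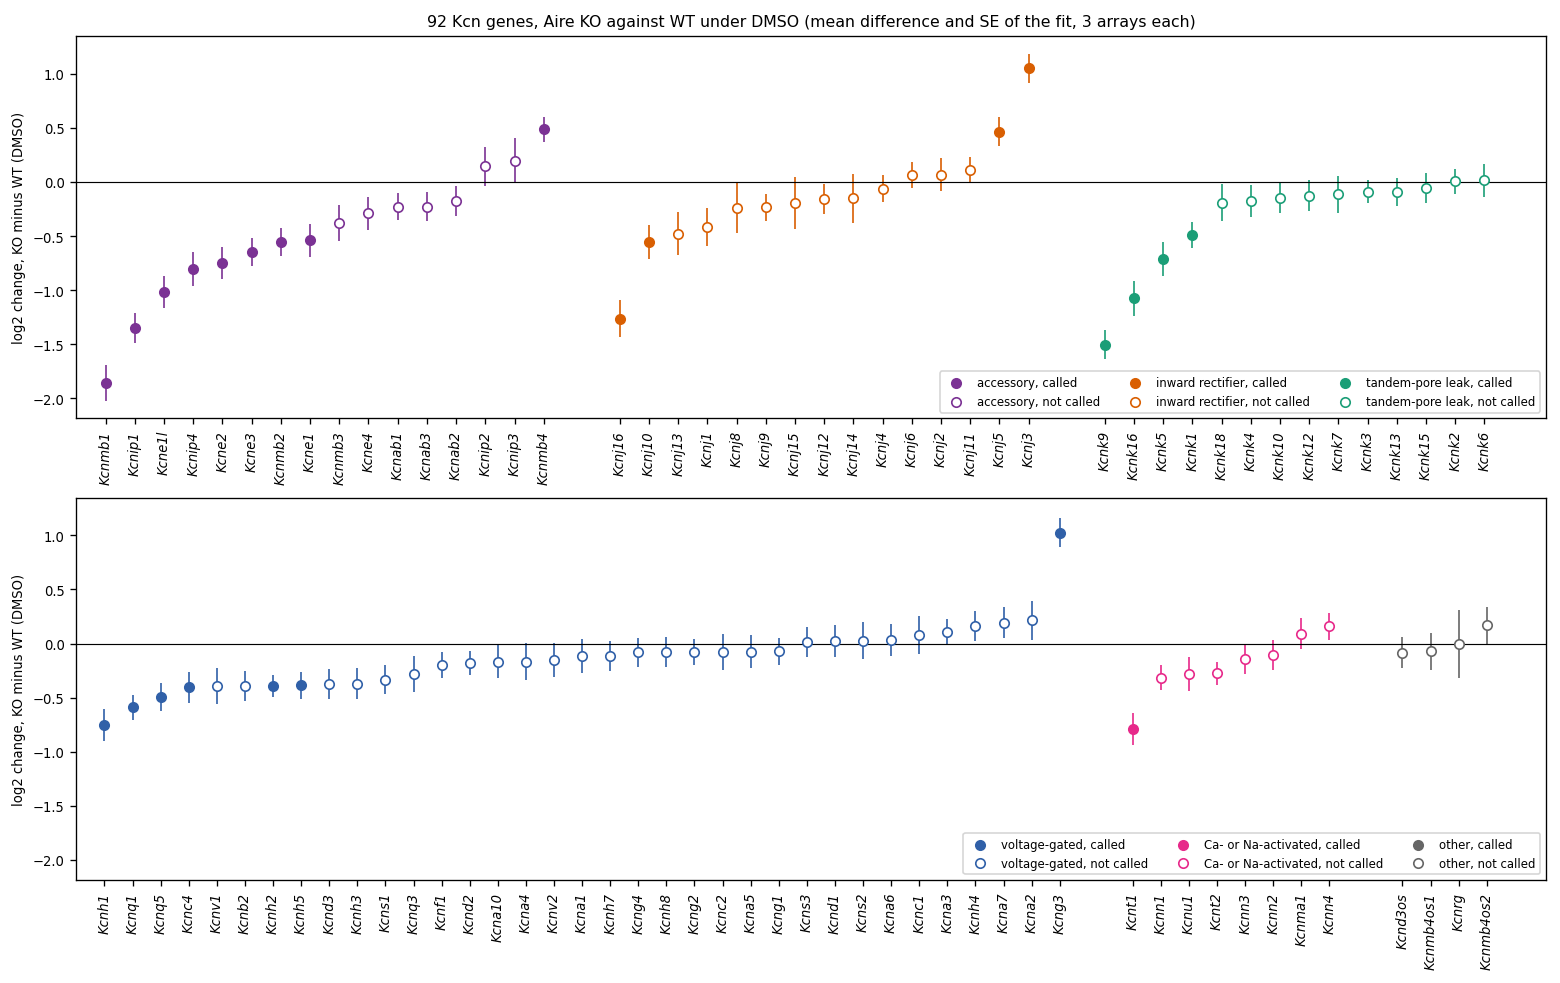
Difference between KO and WT MECs under DMSO for each of the 92 Kcn genes, grouped by class, with the log2 change on the y axis and bars of 1 SE. Filled points are the 25 called genes, of which 21 lie below 0 and 4 above, and Kcnmb1 is lowest at -1.86.

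The accessory subunits held 8 of the falls among their 16 members, with 1 rise and a class median of -0.46. Kcnmb1, the beta subunit that tunes the large-conductance calcium-activated channel of smooth muscle, had log2 intensities of 6.21, 6.57 and 6.51 in KO DMSO arrays, against 8.40, 7.93 and 8.53 in WT DMSO arrays. Its highest KO array lay well below its lowest WT array, and it fell by 1.86 ± 0.17 (SE, limma adjusted p = 3.5e-08). Kcnip1, a calcium-binding partner of the Kcnd channels in brain, had 5.71, 6.06 and 6.17 in KO and 7.35, 7.36 and 7.28 in WT. The WT arrays were tight and the KO arrays all lower, a change of -1.35 ± 0.14 (limma adjusted p = 1.67e-07). Kcnip4, of the same partner family, changed by -0.80 ± 0.16 (limma adjusted p = 0.00073). Kcnip2 and Kcnip3 were not called, with changes of 0.14 and 0.20. Kcnip3 is also known as a repressor of transcription.

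The Kcne genes encode single-pass subunits that join voltage-gated pores, above all Kcnq1. Kcne1l, also named Kcne5, is X-linked and had 7.24, 7.26 and 7.27 in KO DMSO arrays, against 8.17, 8.57 and 8.09 in WT DMSO arrays. All 3 KO arrays lay below every WT array, with a change of -1.02 ± 0.15 (limma adjusted p = 2.62e-05). Kcne2, a partner of Kcnq1 in the acid-secreting stomach, had 6.69, 6.67 and 6.67 in KO and 7.41, 7.67 and 7.20 in WT, and fell by 0.75 ± 0.15. Kcne3, its counterpart in the intestine, had 5.69, 5.70 and 5.76 in KO and 6.43, 6.49 and 6.16 in WT, and fell by 0.64 ± 0.13. Kcne1, the partner in the slow delayed rectifier of the heart, fell by 0.54 ± 0.15. Kcne4 was not called, which left 4 of the 5 measured Kcne genes lower in KO.

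The remaining beta subunits of the large-conductance calcium-activated channel went both ways. Kcnmb2 fell by 0.56 ± 0.13 (limma adjusted p = 0.00378), and Kcnmb3, at -0.38, was not called. Kcnmb4, the beta subunit known from neurons, was the 1 accessory member to rise, with 7.51, 7.86 and 7.88 in KO and 7.16, 7.47 and 7.16 in WT. Its lowest KO array stood just above its highest WT array, and the change was 0.49 ± 0.12 (limma adjusted p = 0.0043). The 3 Kcnab genes, cytoplasmic beta subunits of voltage-gated channels, were not called.

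The leak channels (Kcnk), whose subunits each carry pore domains in tandem and hold the resting potential, had 4 falls and 0 rises among 14 members. Kcnk9, an acid-sensitive leak channel of neurons, had 6.24, 6.82 and 6.42 in KO DMSO arrays, against 8.02, 8.11 and 7.85 in WT DMSO arrays. No KO array came near the WT arrays, and it fell by 1.50 ± 0.14 (limma adjusted p = 4.39e-08). Kcnk16, a leak channel of the pancreatic islet, had 7.15, 7.52 and 7.21 in KO and 8.10, 8.68 and 8.34 in WT, a change of -1.08 ± 0.16. Kcnk5, an acid-sensitive channel of the kidney tubule, had 7.10, 7.06 and 6.98 in KO and 7.70, 8.06 and 7.51 in WT. It fell by 0.71 ± 0.15, and Kcnk1, which conducts weakly, fell by 0.49 ± 0.12. The other 10 leak channels ran from -0.19 (Kcnk18) to 0.02 (Kcnk6), and the class median was -0.14.

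Inward rectifiers pass potassium more easily into than out of the cell, and 2 of their 15 members fell while 2 rose. Kcnj16, which joins Kcnj10 in a channel of the kidney tubule and of glia, had 6.37, 6.34 and 6.42 in KO DMSO arrays, against 7.58, 7.76 and 7.59 in WT DMSO arrays. Both groups were tight and far apart, with a change of -1.26 ± 0.17 (limma adjusted p = 9.78e-06). Kcnj10 itself had 7.20, 6.70 and 6.96 in KO and 7.33, 7.82 and 7.36 in WT. Its highest KO array came close to its lowest WT array, and it changed by -0.55 ± 0.16 (limma adjusted p = 0.0156).

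Kcnj3 and Kcnj5 form the G protein-gated channel that slows the heartbeat in the atrium, and these were the rectifiers that rose. Kcnj3 had 10.44, 10.50 and 10.18 in KO DMSO arrays, against 9.49, 9.13 and 9.35 in WT DMSO arrays. Every KO array exceeded every WT array, a change of 1.05 ± 0.14 (limma adjusted p = 5.77e-06). Kcnj5 had 8.26, 8.57 and 8.46 in KO and from 7.85 to 8.04 in WT, a smaller change of 0.47 ± 0.13 (limma adjusted p = 0.0159). The pore subunits of ATP-sensitive channels were not called, with 0.11 for Kcnj11 of the beta cell and -0.24 for Kcnj8 of blood vessels. Kcnj13, of the retinal pigment epithelium and choroid plexus, at -0.48, and Kcnj1, of the kidney, at -0.42, were not called either.

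The voltage-gated pore subunits, the class with most members, had 6 falls and 1 rise among 35, and their median was -0.12. Kcnh1, an ether-à-go-go channel of brain, had 7.56, 7.51 and 7.51 in KO DMSO arrays, against 8.34, 8.09 and 8.43 in WT DMSO arrays. It fell by 0.76 ± 0.15 with no overlap of the groups. Kcnq1, the pore of the slow delayed rectifier in heart and a channel of many epithelia, had 8.59, 8.96 and 8.85 in KO and 9.41, 9.37 and 9.38 in WT. The WT arrays were almost level while the KO arrays were all lower, with a change of -0.59 ± 0.11 (limma adjusted p = 0.000697). The other 4 that fell were Kcnq5 of the M-current (-0.49), Kcnc4 (-0.41), Kcnh2, the rapid delayed rectifier of the heart (-0.39), and Kcnh5 (-0.39). Kcnh2 had 7.64, 7.76 and 7.67 in KO and 7.98, 8.14 and 8.12 in WT, so its small change also separated the groups.

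The voltage-gated member that rose was Kcng3, an electrically silent subunit that modifies Kcnb channels. Its KO DMSO arrays read 9.86, 9.85 and 9.55, against 8.83, 8.57 and 8.80 in WT DMSO arrays. Every KO array exceeded every WT array by a wide margin, and the change was 1.02 ± 0.13 (limma adjusted p = 5.27e-06). The other 28 subunits of the class were not called. Among them, Kcna3, a channel of T cells, had 8.66, 8.60 and 8.69 in KO and 8.60, 8.49 and 8.54 in WT. On the 2 DMSO arrays high in thymocyte markers, Kcna3 lay between the other KO arrays (KO DMSO 1) and slightly above the other WT arrays (WT DMSO 1).

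Of the 8 members classed by symbol as calcium- or sodium-activated channels, Kcnt1 alone was called. This sodium-activated channel of neurons had 7.02, 7.14 and 7.24 in KO DMSO arrays and 7.85, 8.06 and 7.86 in WT DMSO arrays. It fell by 0.79 ± 0.15 with a clear gap between the groups. Kcnn4, of red cells and lymphocytes, was at 0.16, and the sperm channel Kcnu1, placed in this class by its symbol only, was at -0.28. The probes of Kcnma1, the pore that the Kcnmb subunits join, disagreed: the probe kept changed by 0.09 ± 0.15, and the probe left out by -0.94 ± 0.27. Both probes were alike for the other genes with more than 1 probe, Kcna2 (0.21 and 0.19) and Kcnh8 (-0.08 and -0.07). None of the 4 non-channel genes was called.

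Markers of MECs and of other cells also differed between the DMSO groups. In the MEC list 1 of 9 genes was higher in KO, and the other 8, not called, ran from -0.62 to 0.60. In the B cell list 1 of 4 measured genes was lower in KO, and in the cortical epithelial list 1 of 5. Of the 11 thymocyte genes 0 were called. The stroma and endothelium list (8 of 8 measured) averaged 8.01 to 8.23 in KO DMSO arrays and 8.27 to 8.47 in WT DMSO arrays, with 2 of its 8 genes lower in KO, Col1a1 (-0.71) and Cdh5 (-0.62). The other 6 were not called and ran from -0.25 (Pdgfra) to 0.10 (Pecam1), with the pericyte markers Rgs5 and Pdgfrb at -0.13 and -0.22 and the endothelial Kdr at -0.04. The macrophage and dendritic cell list (7 of 7 measured) averaged 8.06 to 8.27 in KO and 8.42 to 8.75 in WT, with 2 of its 7 genes lower in KO, Adgre1 (-1.61) and Itgam (-0.98). The other 5 were not called and ran from -0.35 (Itgax) to 0.15 (Lyz2), with Mrc1 at -0.07 and Flt3 at 0.06. Macrophages and dendritic cells carry CD45 and the sort was by its absence, but whether some passed the sort was not tested. The part of these cells in the falls of Kcnmb1 and the other members was not tested. Fewer cells of a type and less RNA per cell cannot be told apart in such bulk samples.

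Some members stand beside each other in the genome. The RefSeq table places 18 members in 10 pairs of direct neighbours, and in 2 pairs both members fell in KO under DMSO. Kcnip1 and Kcnmb1 on chromosome 11 have overlapping transcribed regions on opposite strands; they fell by 1.35 and 1.86. Kcnk5 and Kcnk16 on chromosome 14 fell by 0.71 and 1.08. In 2 other pairs 1 member fell: Kcnj10 beside Kcnj9 (-0.23, not called) and Kcnj16 beside Kcnj2 (0.07, not called). In the pair on chromosome 9, Kcnj5 rose by 0.47 while Kcnj1 was at -0.42 and not called. No member fell in 6 of the 10 pairs.

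The same genotype difference was measured 3 more times, in arrays from mice given Etopo, Topo or both, which share no array with the DMSO comparison but share its estimate of the spread. With Etopo, 14 members fell (15.2%, beside 8.07% of all genes) and 4 rose (beside 4.50% of all genes). With Topo, 14 fell (15.2%, beside 9.62%) and 3 rose (beside 5.37%). With both drugs, 9 fell (9.78%, beside 6.12%) and 2 rose (beside 4.32%). After quantile normalization 14 members fell and 4 rose with both drugs, and over all genes 1657 fell and 1516 rose, in place of 1209 and 854. In that setting 1541 of all genes fell and 1083 rose with Etopo, in place of 1593 and 889. With Topo 1838 fell and 1510 rose, in place of 1900 and 1061. Of the 21 that fell under DMSO, 12 were called lower again with Etopo, 12 with Topo and 7 with both, which is 57.1%, 57.1% and 33.3% of them. They made up 12 of 14, 12 of 14 and 7 of 9 of the falls there. The same shares for all genes lower under DMSO are not given here, so these cannot be read as particular to the family. All 21 kept a negative sign with Etopo and with Topo, and 16 kept it with both drugs. The family median was 0.01 with Etopo, -0.17 with Topo and 0.03 with both, against 0.04, -0.04 and 0.03 for all genes.

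Lower in KO under all 4 treatments were 7 genes: Kcnmb1, Kcnip1, Kcnk9, Kcnj16, Kcnh1, Kcnh2 and Kcnq1. Higher under all 4 were Kcnj3 and Kcng3. With both drugs, only Kcnj16, Kcnq1, Kcnj3 and Kcng3 were called under every alternative setting. Kcnmb1 was called there in 9 of 12 settings, Kcnh1 and Kcnk9 in 8 of 12, Kcnh2 in 7 of 12 and Kcnip1 in 3 of 11. For Kcnmb1, Kcnk9 and Kcnip1, the difference was larger under DMSO than under any drug. Kcnmb1 changed by -1.86 under DMSO, -1.49 with Etopo, -0.98 with Topo and -0.72 with both. Kcnk9 changed by -1.50, -0.70, -0.54 and -0.60 in the same order of treatments. For Kcnj16 and Kcnq1, the difference was larger under every drug. Kcnj16 changed by -1.26, -1.80, -1.97 and -1.84, and Kcnq1 by -0.59, -0.97, -1.25 and -1.16. Kcnj3 stayed between 1.05 and 1.17, and Kcng3 between 1.02 and 1.29. Whether these differences changed with a drug is given by the interaction tests further on.

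**Figure D2:**
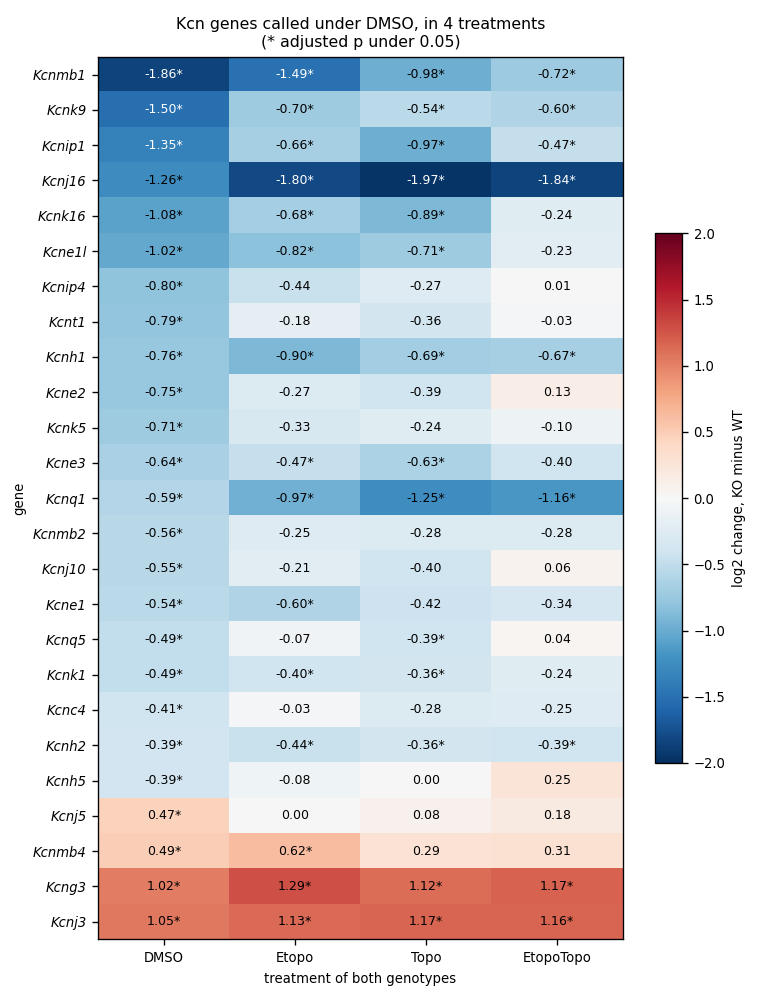
Log2 change, KO minus WT, of the 25 Kcn genes called under DMSO (rows, in order of that change) in each of the 4 treatments (columns), with blue lower in KO, red higher in KO and a star for adjusted p under 0.05. Kcnmb1 pales from -1.86 under DMSO to -0.72 with both drugs while Kcnj16 is darkest with Topo, at -1.97.

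Members not called under DMSO were called under some drugs. Kcnq3, of the M-current, was lower in KO with Etopo (-0.63 ± 0.19) and with both drugs (-0.59 ± 0.19). Kcnj13 was lower with Etopo (-0.70 ± 0.22), Kcnh3 and Kcnv1 with Topo (-0.56 and -0.59), and Kcnj15 with both drugs (-0.95 ± 0.27). For Kcnj15 the 2 KO EtopoTopo arrays read 9.82 and 11.03, against 11.50, 11.51 and 11.13 in WT EtopoTopo arrays, and KO EtopoTopo 1 carried most of the difference. Kcnn4 was higher in KO with Etopo (0.45 ± 0.14, limma adjusted p = 0.0372) and with Topo (0.46 ± 0.12, limma adjusted p = 0.013). With Topo its arrays read 8.44, 8.57 and 8.97 in KO and 8.17, 8.19 and 8.23 in WT. Without WT EtopoTopo 1 and 2, the arrays with conflicting labels, 4 members were called with both drugs (2 lower and 2 higher), in place of 11. Without KO EtopoTopo 1 the count was 6 (3 lower and 3 higher), and without KO EtopoTopo 2 it was 24 (12 lower and 12 higher).

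**Figure D3:**
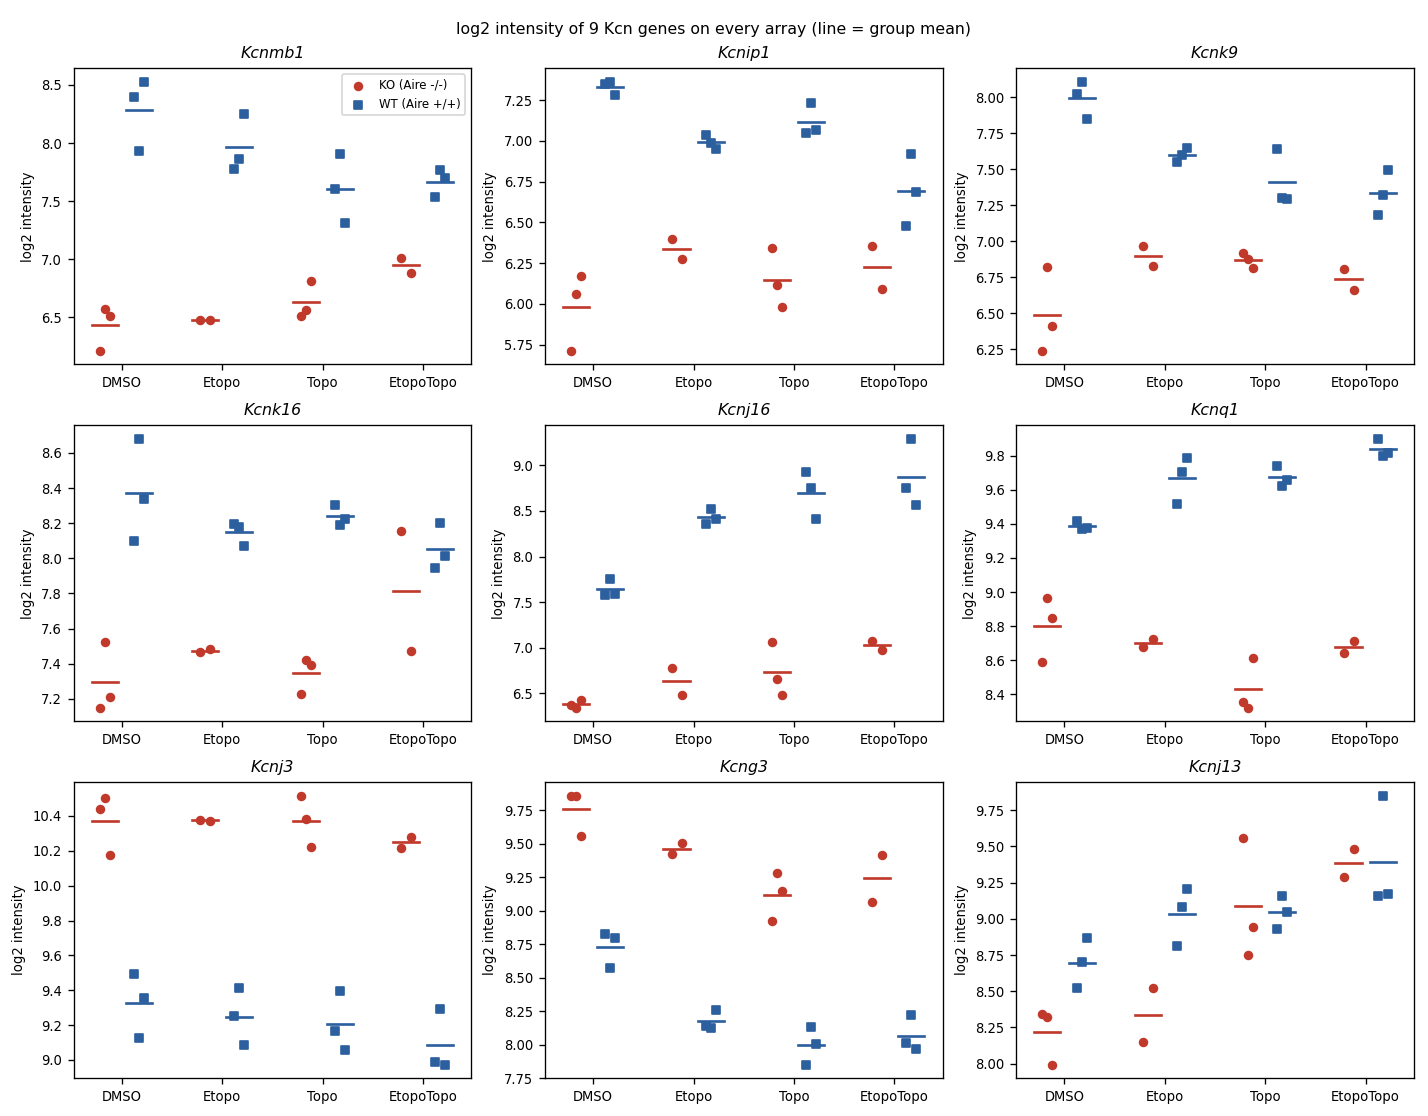
Log2 intensity of 9 Kcn genes on every array, with KO (circles) left of WT (squares) in each treatment and a line at each group mean. KO lies below WT in all treatments for Kcnmb1, Kcnip1, Kcnk9, Kcnj16 and Kcnq1 and above WT for Kcnj3 and Kcng3, while Kcnk16 and Kcnj13 overlap between genotypes in at least 1 drug treatment.

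Etopo or Topo given singly changed few members within a genotype. In WT MECs, Etopo called 0 of the 92 members by limma, beside 0.00506% of all genes. At an unadjusted p under 0.05 there were 10 members (10.9%), beside 5.55% of all genes. Topo lowered 3 members in WT MECs (beside 1.38% of all genes) and raised 1 (beside 0.830%). Kcng3 had from 7.85 to 8.13 in the 3 WT Topo arrays, against 8.83, 8.57 and 8.80 in WT DMSO arrays. All Topo arrays lay below all DMSO arrays, and it fell by 0.74 ± 0.13 (limma adjusted p = 0.00426). Kcnmb1 fell by 0.68 ± 0.17 and Kcnk9 by 0.58 ± 0.14. The riser was Kcnj16, with 8.93, 8.75 and 8.42 in WT Topo arrays and 7.58, 7.76 and 7.59 in WT DMSO arrays. It changed by 1.06 ± 0.17 (limma adjusted p = 0.00218), with every Topo array above every DMSO array. Without WT DMSO 1, or without WT Topo 3, Kcng3 and Kcnj16 remained and the count was 2.

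With both drugs, 5 members fell in WT MECs (beside 7.28% of all genes) and 5 rose (beside 3.60%). Over all genes that was 1438 lower and 711 higher, and after quantile normalization 1580 lower and 1380 higher. Kcng3 (-0.67 ± 0.13), Kcnk9 (-0.66 ± 0.14), Kcnip1 (-0.64 ± 0.14), Kcnmb1 (-0.62 ± 0.17) and Kcne1l (-0.46 ± 0.15) fell. Kcnj16 rose most, with 8.75, 9.29 and 8.56 in WT EtopoTopo arrays, against 7.58, 7.76 and 7.59 in WT DMSO arrays, a change of 1.23 ± 0.17 (limma adjusted p = 9.7e-05). Kcnh8, of the ether-à-go-go family in brain, had 8.66, 8.83 and 8.58 with both drugs and 7.96, 7.81 and 7.98 with DMSO, and rose by 0.77 ± 0.14. Kcnj13 (0.70 ± 0.20), Kcnq1 (0.45 ± 0.11) and Kcnt2 (0.35 ± 0.11) also rose. All WT EtopoTopo arrays came from 4-week mice and only WT DMSO 3 among their controls did. With age as a covariate 4 members were called, with the age term taken from WT DMSO 3 and WT Etopo 3, whose groups alone held both ages. Against WT DMSO 3 alone, or without WT EtopoTopo 1 and 2, 1 member was called, Kcnj16.

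In KO MECs, Etopo called 0 members and 0% of all genes by limma. At an unadjusted p under 0.05 there were 3 members (3.26%), beside 3.58% of all genes. Topo lowered Kcng3 (beside 0.780% of all genes) and raised Kcnj13 (beside 0.253%). Over all genes that was 154 lower and 50 higher, and after quantile normalization 101 lower and 60 higher. Kcng3 had 8.92, 9.28 and 9.15 in KO Topo arrays, against 9.86, 9.85 and 9.55 in KO DMSO arrays, and fell by 0.64 ± 0.13 (limma adjusted p = 0.0214). Kcnj13 had 9.56, 8.75 and 8.94 with Topo and 8.34, 8.32 and 7.99 with DMSO, and rose by 0.87 ± 0.20 (limma adjusted p = 0.0328). In both genes the groups did not overlap. Neither was called without the 2 DMSO arrays high in thymocyte markers, nor without KO DMSO 1, 2 or 3, KO Topo 1 or KO Topo 3 in turn.

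**Figure D4:**
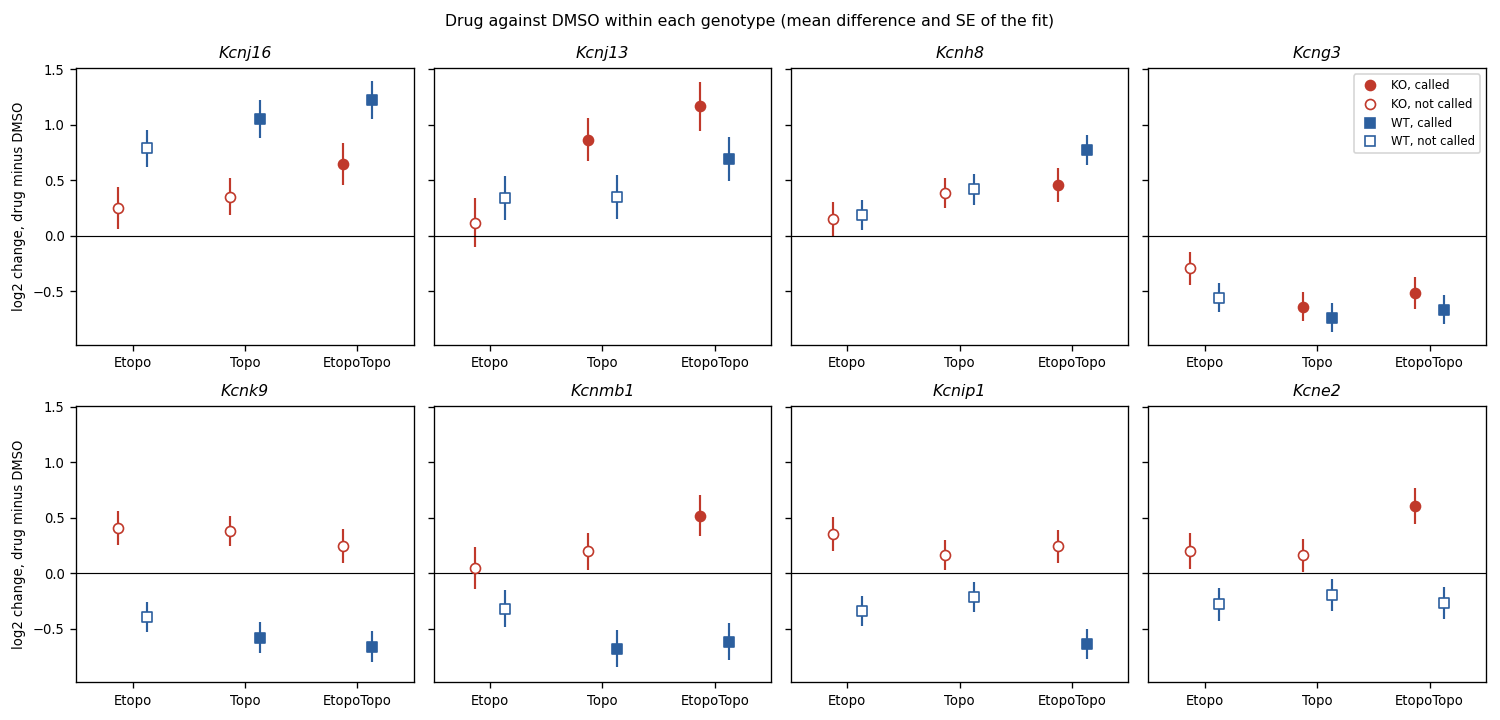
Log2 change of each drug treatment against DMSO (x axis, by treatment) within KO (circles) and WT (squares) MECs for 8 Kcn genes, with bars of 1 SE and filled points for called changes. Kcng3 is below 0 in both genotypes throughout, and Kcnk9, Kcnmb1, Kcnip1 and Kcne2 lie above 0 in KO and below 0 in WT.

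With both drugs, 20 members rose in KO MECs (beside 11.1% of all genes) and 1 fell (beside 11.7%). Over all genes that was 2319 lower and 2194 higher, and with dim genes left out 2347 lower and 1135 higher. Kcnj13 led, with 9.29 and 9.48 in KO EtopoTopo arrays, against 8.34, 8.32 and 7.99 in KO DMSO arrays. Both treated arrays stood above every control, and it rose by 1.17 ± 0.22 (limma adjusted p = 0.0037). Kcnj16 had 7.07 and 6.97 with both drugs and 6.37, 6.34 and 6.42 with DMSO, and rose by 0.65 ± 0.19. The risers came from every class: 7 voltage-gated, 4 accessory, 4 inward rectifiers, 2 leak channels, 2 calcium- or sodium-activated channels and Kcnmb4os1. Apart from Kcnj13, their changes lay between 0.36 (Kcnt2) and 0.65 (Kcnj16). Kcng3 fell, with 9.06 and 9.42 in KO EtopoTopo arrays and 9.86, 9.85 and 9.55 in KO DMSO arrays, by 0.52 ± 0.15.

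These 20 rises rested on 2 arrays that differed from each other. Relative to the KO DMSO mean, the median of the 92 members was 0.37 on KO EtopoTopo 1 and 0.14 on KO EtopoTopo 2, against 0.09 and 0.03 for all genes. KO EtopoTopo 1 was the higher of the pair for 61 of the 92 members and for 15 of the 20 risers. It was also the array with the narrowest spread of values and the lowest MEC and cortical epithelial markers. The MEC list averaged 11.04 on it and 11.47 on KO EtopoTopo 2, against 11.73 to 11.87 in KO DMSO arrays, and the cortical list (5 of 5 measured) averaged 8.84 and 9.40, against 9.53 to 9.84. Their part in the rises was not tested. Some members were low on it, such as Kcnip3, with 10.88 on KO EtopoTopo 1 and 12.10 on KO EtopoTopo 2, against 11.88, 12.33 and 11.88 in KO DMSO arrays. Without KO EtopoTopo 1 only Kcnip2 was called, and without KO EtopoTopo 2 the count was 39. After quantile normalization 5 of the 92 members rose and 1 fell. Of all 19752 genes, 1399 rose and 1458 fell in that setting, in place of 2194 and 2319. The median change was then 0.05 for the members and 0.01 for all genes, in place of 0.25 and 0.06. The larger share of rises among members than among all genes was thus not kept in that setting. Leaving out KO DMSO 1, 2 or 3 in turn gave 10, 10 and 9 called members. The KO EtopoTopo arrays came from 4-week mice and all KO DMSO arrays from 6-week mice, so age and drugs cannot be told apart here. A fit with age as a covariate took its age term from WT DMSO 3 and WT Etopo 3. Only their groups held both ages, and neither was KO. That fit called 0 members, against 21 without age, and does not separate age from drugs in KO. The fitted rise of Kcnj13 was then 0.91, in place of 1.17 (limma adjusted p = 0.172). Over the 12 alternative settings, this among them, Kcnj13 ran from 0.91 to 1.33 and was called in 9.

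**Figure D5:**
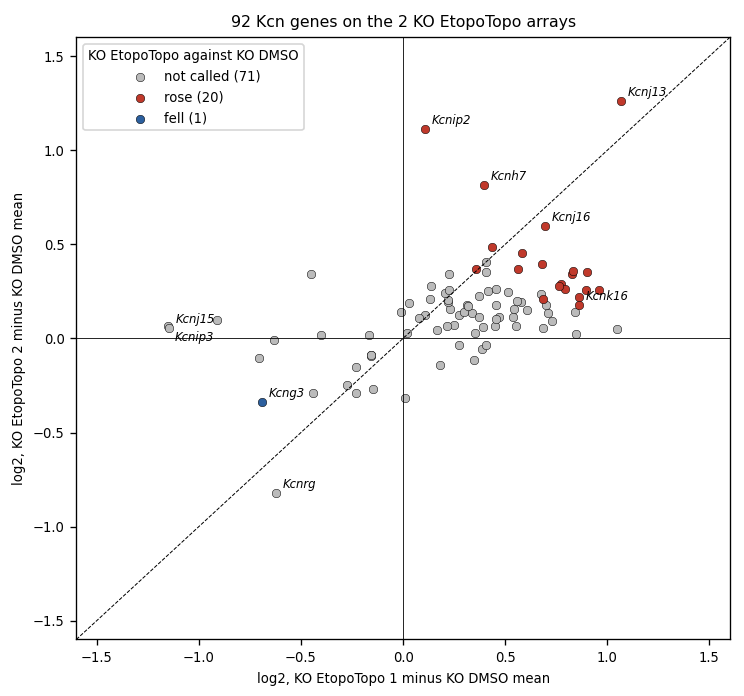
Difference of each KO EtopoTopo array from the KO DMSO mean on the log2 scale for the 92 Kcn genes, array 1 on the x axis and array 2 on the y axis, with the 20 genes that rose in red, the 1 that fell in blue and a dashed line of equality. Kcnj13 and Kcnj16 lie near the line, and 15 of the 20 risers lie to its right, higher on array 1.

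The difference between the genotypes in a drug effect was tested as an interaction, the KO effect minus the WT effect. For Etopo it called 0 members by limma (beside 0% of all genes), and for Topo 0 members (beside 0.0759% of all genes). At an unadjusted p under 0.05 there were 12 of 92 members for Etopo (beside 4.59% of all genes) and 7 of 92 for Topo (7.61%, beside 4.74%). For both drugs it called 4 members with a higher effect in KO (beside 2.35% of all genes) and 0 with a lower one (beside 0.106%). Kcnmb1 had 7.01 and 6.88 in KO EtopoTopo arrays and 6.21, 6.57 and 6.51 in KO DMSO arrays, against 7.53, 7.77 and 7.70 in WT EtopoTopo arrays and 8.40, 7.93 and 8.53 in WT DMSO arrays. The effect was 0.52 in KO and -0.62 in WT, so the genotypes moved closer, with an interaction of 1.14 ± 0.25 (limma adjusted p = 0.0152). Kcnk9 gave 0.91 ± 0.21, Kcnip1 0.88 ± 0.20 and Kcne2 0.88 ± 0.22. Kcnip1 had 6.35 and 6.09 in KO EtopoTopo arrays and 6.48, 6.92 and 6.69 in WT EtopoTopo arrays, which nearly met. For Kcnj16 and Kcnq1 the interaction was -0.58 (limma adjusted p = 0.292) and -0.57 (limma adjusted p = 0.0894), so the wider genotype difference with both drugs did not pass the test. None of the 4 was called without WT EtopoTopo 1, without KO EtopoTopo 1, after quantile normalization or without the 2 DMSO arrays high in thymocyte markers. All EtopoTopo arrays came from 4-week mice, all KO DMSO arrays from 6-week mice, and WT DMSO arrays from both ages. Age thus enters this interaction unequally in the genotypes and cannot be told apart from the drugs.

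Tuft cell markers moved with the drugs too. Their list (8 of 8 measured) averaged 9.59 and 10.51 in KO EtopoTopo arrays and 9.34 to 9.71 in KO DMSO arrays, and 10.79 to 10.94 in WT EtopoTopo arrays and 9.46 to 9.80 in WT DMSO arrays. With Topo it averaged 10.08 to 10.32 in KO and 10.38 to 10.67 in WT arrays, and with Etopo 9.58 to 9.95 in KO and 10.10 to 10.45 in WT arrays. Of the 8 genes, 3 rose in KO and 8 in WT MECs with both drugs, 2 in KO and 6 in WT MECs with Topo, and 0 in either with Etopo. The part of these cells in the changes of Kcnj16, Kcnj13 and Kcnh8 was not tested.

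Proteins that partner potassium channels were taken as a list of 9 genes, of which 2 fell and 1 rose in KO under DMSO, with a median of -0.29. The shares of all genes in that comparison were 12.0% lower and 7.40% higher, with a median of -0.01, and they stand beside the lists that follow too. Abcc9, the regulatory subunit that joins Kcnj8 in blood vessels, fell by 0.69 ± 0.14, and Lrrc55, which modifies the large-conductance channel, fell by 0.50 ± 0.14. Dpp10, a partner of the Kcnd channels as the Kcnip proteins are, rose by 1.20 ± 0.13 (limma adjusted p = 3.75e-07). Dpp10 was higher in KO with Etopo (1.24), Topo (1.18) and both drugs (1.10) as well, whereas Kcnip1 was lower in each. Abcc8, which joins Kcnj11 in the beta cell, was at 0.36 ± 0.13 (limma adjusted p = 0.0573). Of other ion channel lists, 8 of 24 genes with calcium channel symbols fell and 3 rose, with a median of -0.19. That list was taken by symbol (beginning Cacna, Cacnb or Cacng) and not by function, and falls and rises both included Cacng genes. Among 10 sodium channel genes 1 fell and 1 rose, and of 3 pacemaker channels Hcn4 fell.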

How the data were processed

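RNA of sorted MECs was measured on 22 arrays, grouped by the titles. The authors deposited 1 intensity per probe and array, not logged. The submitters' processing notes name Affymetrix Power Tools and RMA with neither version nor role. The planned tests assumed log2 values where the authors deposited such. The intensity values deposited were linear, so log2 was taken without a pseudocount, and no further normalization was applied. Of 24922 probes, 21425 had 1 gene symbol, 1399 several and 2098 none, and the last 2 kinds were left out. Each gene was read from its probe of highest mean. By Entrez identifier, all 92 Kcn genes were found in RefSeq (GRCm38.p6). Group means were fitted over all 22 arrays in R 4.3.3 with limma 3.58.1 (lmFit, eBayes; residual degrees of freedom 14, prior 7.22) and data.table (version 1.17.8), and p-values were adjusted by Benjamini-Hochberg over all 19752 genes. The fit was tested on simulated data.

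Members, classes and other lists were chosen with earlier results of these data known. Every member could be named, with values per array for those called with the largest changes and for a few preset genes. Alternatives were quantile normalization, leaving out dim genes (mean under the 25th percentile), the mean of a gene's probes, a fit on the compared groups only, age as a covariate, a replicate block, and leaving out each array. Leaving out the arrays high in thymocyte markers, leaving out those with conflicting labels, and using 4-week arrays only were added after seeing the data. Replicate numbers come from the titles. Same-numbered arrays deviated together (every correlation over 0.1) in 2 of 10 comparisons, Etopo in WT and Topo in KO MECs, where the replicate block left the counts at 0 and 2. Arrays hold no read depth, so precision rests on 2 or 3 arrays a group.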

Additional observations from a re-analysis of the deposited data

Results flagged for a closer look

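In 4 members the interaction test (KO effect minus WT effect) called a difference between KO and WT MECs in the effect of both drugs. The value was 1.14 ± 0.25 (SE) for Kcnmb1, 0.91 ± 0.21 for Kcnk9, 0.88 ± 0.20 for Kcnip1 and 0.88 ± 0.22 for Kcne2, on the log2 scale, with limma adjusted p of 0.0152, 0.0194, 0.0206 and 0.0361. Kcnmb1 and Kcne2 rose in KO MECs, by 0.52 and 0.61, while Kcnmb1, Kcnk9 and Kcnip1 fell in WT MECs, by 0.62, 0.66 and 0.64. Kcne2 had 7.63 and 6.93 in KO EtopoTopo arrays and 6.69, 6.67 and 6.67 in KO DMSO arrays, against 7.03, 7.28 and 7.17 in WT EtopoTopo arrays and 7.41, 7.67 and 7.20 in WT DMSO arrays. KO EtopoTopo 1 was the highest of these KO arrays. With Topo alone the interaction of Kcnk9 was 0.96 ± 0.19 (limma adjusted p = 0.057), which did not pass.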

How the results depend on the processing

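Of the 25 members called between KO and WT under DMSO, 17 were called under every alternative and array left out, among them Kcnmb1, Kcnk9, Kcnip1, Kcnj16, Kcnq1, Kcng3 and Kcnj3. Kcnc4, Kcne1, Kcnh2, Kcnh5, Kcnj5, Kcnj10, Kcnmb4 and Kcnq5 were lost in at least 1. The numbers that held were 8 of 18 with Etopo, 10 of 17 with Topo and 4 of 11 with both drugs (Kcng3, Kcnj16, Kcnj3 and Kcnq1). For drugs against DMSO they were 2 of 4 (WT Topo), 1 of 10 (WT EtopoTopo), 0 of 2 (KO Topo) and 0 of 21 (KO EtopoTopo). Of the 4 interactions 0 held. Kcnt2 in KO EtopoTopo against KO DMSO reversed to -0.046 after quantile normalization (limma adjusted p = 0.878); the cause was not tested.

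With quantile normalization the called members numbered 18 in KO against WT with both drugs, 1 in KO Topo, 6 in KO EtopoTopo and 0 in the interaction for both drugs. With only the compared groups in the fit, which leaves fewer arrays, these became 5, 0, 0 and 1. Age as a covariate gave 4 in WT EtopoTopo and 0 in KO EtopoTopo, and leaving out dim genes gave 1 in the Topo interaction. Without WT DMSO 1 and KO DMSO 1 there were 2 in WT Topo, 0 in KO Topo, 9 in KO EtopoTopo and 0 in the interaction for both drugs. Without WT EtopoTopo 1 and 2 there were 4 in KO against WT with both drugs, 1 in WT EtopoTopo and 0 in that interaction, and with 4-week arrays only there was 1 in WT EtopoTopo. The causes were not tested.

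Leaving out each array in turn gave 21 to 29 members between KO and WT under DMSO, 9 to 15 with Etopo, 12 to 16 with Topo and 6 to 24 with both drugs. It gave 2 to 3 in WT Topo, 6 to 10 in WT EtopoTopo, 0 to 2 in KO Topo and 1 to 39 in KO EtopoTopo. The interactions ran from 0 to 1 (Topo) and 0 to 24 (both drugs), and the Etopo effects and their interaction stayed at 0. Where 1 array was left in a group, it was assumed to vary like the other groups. Wherever KO EtopoTopo arrays entered, the lowest counts came without KO EtopoTopo 1 and the highest without KO EtopoTopo 2, and the interaction was also 0 without WT EtopoTopo 1, 1 without KO DMSO 1 and 2 without WT DMSO 2. KO against WT with both drugs gave 7 without WT EtopoTopo 1 or 2. WT EtopoTopo gave 6 without WT DMSO 1, and the Topo interaction 1 without KO DMSO 2. KO against WT with Etopo gave 11 without WT Etopo 2 or KO Etopo 1 and 9 without KO Etopo 2.

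With the replicate block, KO against WT gave 26 (DMSO), 16 (Etopo), 15 (Topo) and 11 (both drugs), and drugs against DMSO gave 0, 4 and 8 in WT and 0, 2 and 14 in KO MECs, in the order Etopo, Topo, both drugs. The interactions gave 0, 0 and 3. Correlations of same-numbered arrays ran from -0.56 to 0.59, and outside the comparisons where the numbers paired the arrays, the numbers may be names only. Signal over background was not analysed here, and 66 of the 92 members passed the filter on dim genes.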
